A study of Mus musculus with 6 samples.

Results

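The genes described here are 10 antioxidant genes, taken as Nrf2 targets and glutathione genes: Hmox1, Nqo1, Gclc, Gclm, Txnrd1, Srxn1, Slc7a11, Gpx1, Gpx4 and Cat. All probe sets (groups of short array probes read as a single value) whose only annotated symbol was among these 10 were used, which gave 20 of the 45037 probe sets tested, for 10 of 18193 genes. Hippocampal total RNA came from 3 IκBα-deficient mice of genotype IκBαfl/-;Nestin-Cre and 3 littermate controls of genotype IκBαfl/-, all 2 to 3 months old and kept in a pathogen-free facility, and was hybridised to Affymetrix mouse arrays. Controls thus also carried 1 null allele of Nfkbia, the gene for IκBα. Nestin-Cre acts in the neural lineage, so neurons, astrocytes and oligodendrocytes lose the floxed allele, while microglia and vessel cells arise elsewhere and are not its main target. The labels call the arrays biological repeats, 3 per group.

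Nrf2, encoded by Nfe2l2, is a transcription factor that Keap1 marks for degradation under resting conditions. Oxidants and electrophiles modify Keap1, and Nrf2 then pairs with small Maf proteins on antioxidant response elements and raises enzymes that make glutathione, reduce thioredoxin and break down quinones and heme. In the brain this programme is best known from astrocytes, which supply neurons with glutathione precursors. IκBα holds NF-κB in the cytoplasm, and NF-κB and Nrf2 are known to influence each other. Gpx1, Gpx4 and Cat remove peroxides and are less strictly tied to Nrf2 than the others. The comparison asks whether these transcripts differ when brain IκBα is lost.

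None of the 20 probe sets passed the test, and the differences were small. They ran from -0.23 for Hmox1 to 0.25 for Slc7a11 in log2 units (deficient animals minus controls), with 11 higher and 9 lower and a median of 0.03. Over all 45037 probe sets the median was -0.0005. The median size of a difference without its sign was 0.08 among the 20 and 0.07 over all probe sets. All 20 had an adjusted p of 0.9999 (limma, Benjamini-Hochberg over the whole table). Over all probe sets, 3 passed, or 0.00666%, and all 3 were for Nfkbia and lower.

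The intervals limit how large a change could have been. For 19 of the 20 probe sets the 95% interval of the difference, not adjusted for their number, lay within 0.5 either way on the log2 scale, or 1.41-fold. The exception was Slc7a11 probe set 1443536_at, whose interval reached 0.58, or 1.49-fold. Over the whole table the interval lay within 0.5 either way for 40593 of the 45037 probe sets, so this is no trait of these genes. All these intervals come from the fit with genotype as the only term. Values are RMA log2 values, which are relative levels that compress differences between dim signals, so these bounds hold for the array signal and not for RNA copies. The RNA is from whole hippocampus, where fewer cells of a type and less RNA per cell cannot be told apart.

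**Figure D1:**
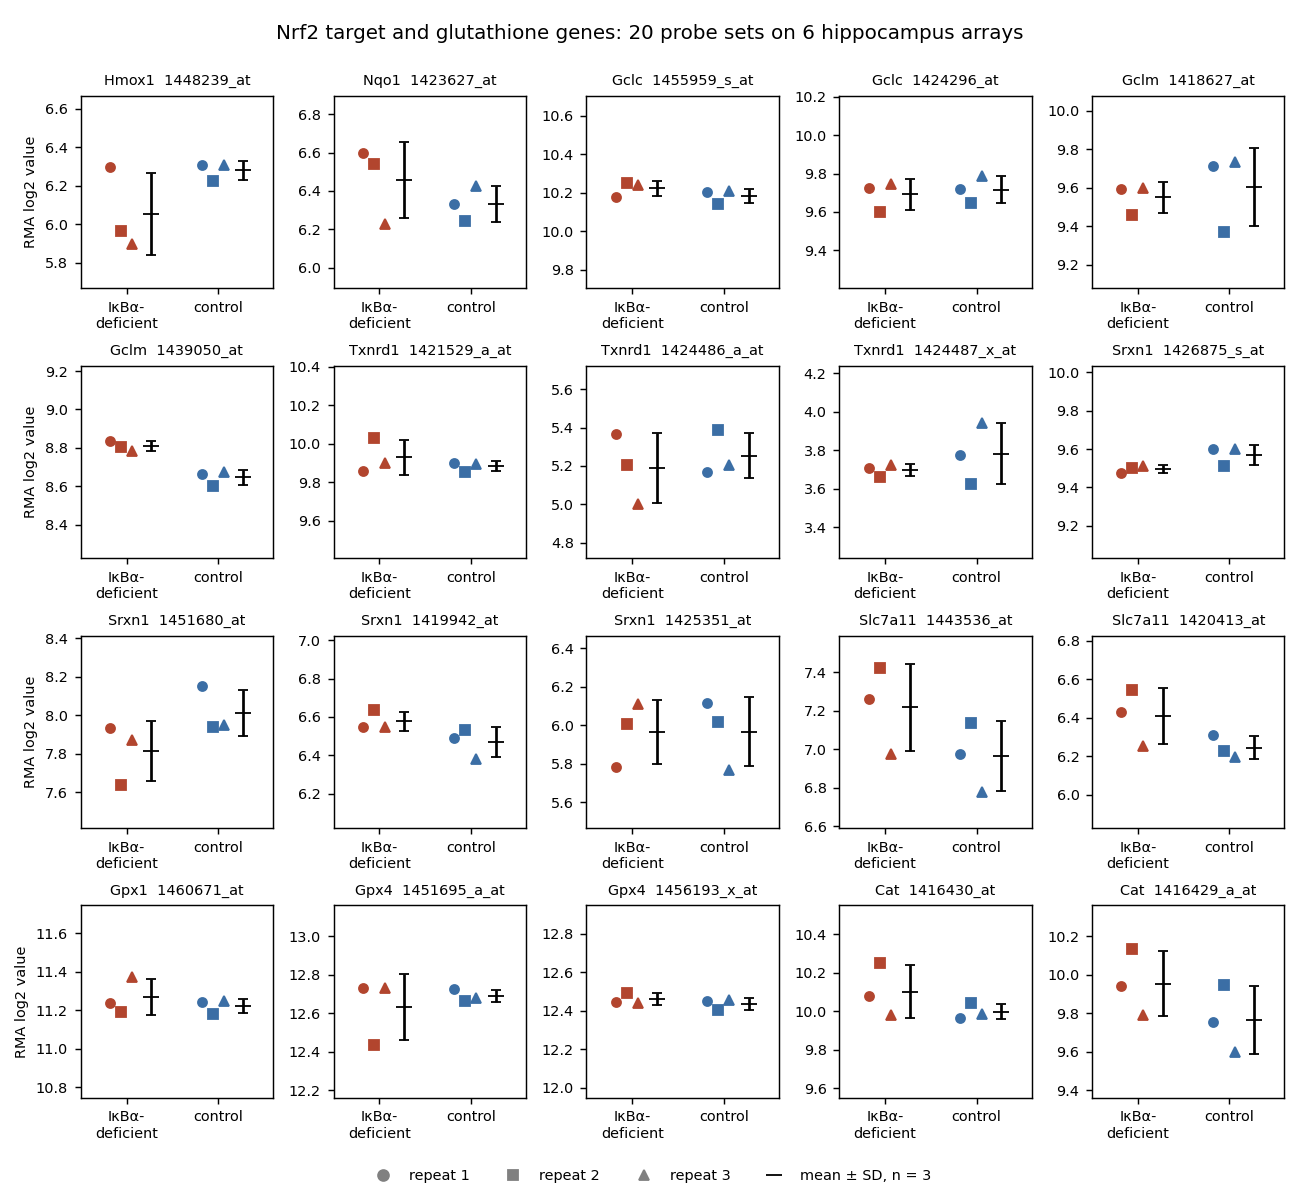
RMA log2 values of the 20 probe sets on each array, IκBα-deficient left and control right, with repeat numbers as symbols and mean ± SD (n = 3 arrays per group) in black; every panel spans 1 log2 unit. The groups overlap in 17 panels and are apart for Gclm 1439050_at, Srxn1 1451680_at and Srxn1 1419942_at.

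The array and sample context is as follows. Nfkbia was lower on every deficient array for 4 of its 5 probe sets, with differences of -1.83 to -1.40 on the log2 scale, as its probe set 1438157_s_at shows with 7.04, 7.07 and 6.86 in deficient animals against 8.81, 8.71 and 8.78 in controls, and 3 of the 5 passed the test. All 12 hippocampal neuron markers lay above the array medians, as hippocampal tissue should show, and 9 were lower and 3 higher in deficient animals, with a median difference of -0.09. At an unadjusted p under 0.05, 4 of them (Tdo2, Lct, C1ql2 and Spink8) were lower and 1, Neurod6, was higher. Of 10 astrocyte markers 6 were higher and 4 lower, with a median of 0.03, and 3 were higher at an unadjusted p under 0.05. These were Aqp4 at 0.45 ± 0.07, Gfap at 0.30 ± 0.08 and Sox9 at 0.18 ± 0.08 (SE), each with the groups apart and none past the adjusted threshold. Slc1a2 at -0.11 ± 0.06 and Aldoc at -0.06 ± 0.06 (SE) were apart the other way, with all deficient arrays below all controls. Of 9 measured microglia markers 5 were higher and 4 lower, with 2 higher at an unadjusted p under 0.05. Of 9 measured oligodendrocyte markers 8 were higher and 1 lower, and of 9 endothelium markers 6 were higher and 3 lower. In these last lists 0 had an unadjusted p under 0.05. Of 13 measured choroid plexus markers 13 were higher in deficient animals, and 13 had an unadjusted p under 0.05. Their summed level was 14.64 to 14.98 in deficient arrays against 10.83 to 14.63 in controls (log2 of the summed linear values). Of 14 meninges markers 14 were higher, 4 of them at an unadjusted p under 0.05. Their summed level was 12.28 to 13.04 in deficient arrays against 11.73 to 12.14 in controls. The mean log2 value of this list overlapped between groups, at 7.50 to 8.55 in deficient arrays and 6.98 to 7.54 in controls. IκBα-deficient array 2 read its 3′ control probe sets 2.02 log2 units above the 5′ ones, a sign of RNA or labelling quality. This gap was 0.65 and 0.61 for deficient arrays 1 and 3 and 0.56 to 0.73 for controls. Beyond a fit with the choroid plexus markers as a covariate, the part of these differences in the values below was not tested. That covariate largely followed genotype, with list means of 7.68 to 8.67 in deficient arrays and 5.68 to 7.80 in controls. The fit can thus separate it from genotype only in part, and its differences are given as a check.

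**Figure D2:**
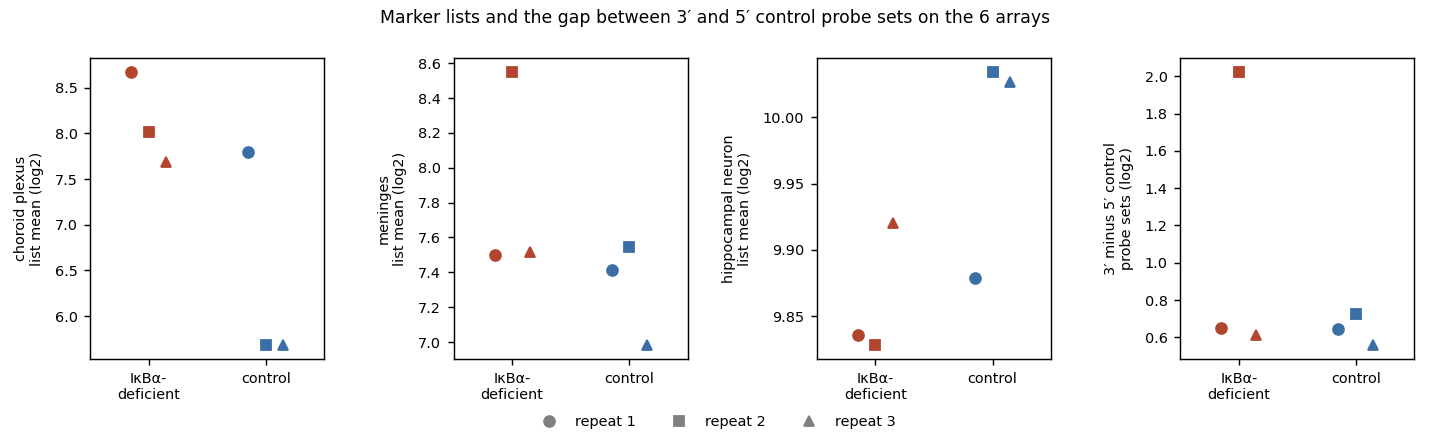
Mean RMA log2 value of the choroid plexus, meninges and hippocampal neuron marker lists, and the log2 gap from 5′ to 3′ control probe sets, on each array, IκBα-deficient left and control right. IκBα-deficient array 2 stands apart at a gap of 2.02, and control array 1, at a choroid plexus mean of 7.80, lies with the deficient arrays, at 7.68 to 8.67.

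Hmox1, the inducible heme oxygenase that turns heme into biliverdin, carbon monoxide and iron, had the lowest difference of the 20. Its probe set 1448239_at gave 6.30, 5.97 and 5.90 in IκBα-deficient animals against 6.31, 6.22 and 6.31 in controls. Deficient array 1 lay inside the control range and the other deficient arrays lay below it, so the groups overlapped. The difference was -0.23 ± 0.11 (SE, n = 3 per group), with a 95% interval of -0.49 to 0.03. These values lie near the array medians of 6.08 to 6.12, a range in which RMA can understate a change. Without IκBα-deficient array 1 the difference was -0.35, and without IκBα-deficient array 3 it was -0.15. With the choroid plexus markers as a covariate it was -0.36.

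Nqo1, a quinone reductase often used as a readout of Nrf2, had a difference of the other sign. Probe set 1423627_at gave 6.60, 6.54 and 6.23 in deficient animals against 6.33, 6.24 and 6.42 in controls. Of the deficient arrays, 1 and 2 were above all controls and 3 was below them all. The difference was 0.12 ± 0.11 (SE), with an interval of -0.14 to 0.38. It ranged from 0.05 without IκBα-deficient array 1 to 0.24 without IκBα-deficient array 3, and was 0.04 with the choroid plexus covariate. The 2 classical indicator genes of the pathway thus had differences of opposite sign, and neither passed.

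Slc7a11, the cystine-glutamate exchanger xCT that brings in cystine for glutathione synthesis, had the highest difference of the 20, and both its probe sets had positive differences. Probe set 1443536_at gave 7.26, 7.42 and 6.97 in deficient animals against 6.98, 7.14 and 6.78 in controls. Probe set 1420413_at gave 6.43, 6.55 and 6.25 in deficient animals against 6.31, 6.23 and 6.20 in controls. In both, deficient arrays 1 and 2 were above every control and deficient array 3 lay inside the control range. The differences were 0.25 ± 0.14, or 1.19-fold, and 0.16 ± 0.09, or 1.12-fold (SE), with intervals of -0.07 to 0.58 and -0.05 to 0.38. IκBα-deficient array 2 was the highest in both. It also had the highest meninges summed level, at 13.04, and the widest 3′ to 5′ gap, at 2.02. Without it the differences were 0.15 and 0.10. Without IκBα-deficient array 3 they were 0.38 and 0.24. Without control array 3 the difference of 1443536_at was 0.16. With the choroid plexus covariate they were 0.19 and 0.06. Slc7a11 is also expressed in the meninges, and neither the part of meningeal RNA nor that of RNA quality in these values was tested. Slc3a2, the heavy chain that Slc7a11 needs at the membrane, had a difference of 0.003 ± 0.061 (SE).

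Gclc and Gclm encode the catalytic and the modifier subunit of glutamate-cysteine ligase, which carries out the rate-limiting step of glutathione synthesis. For Gclc, probe set 1455959_s_at spanned 10.18 to 10.25 in deficient animals and 10.14 to 10.21 in controls, and 1424296_at spanned 9.60 to 9.75 in deficient animals and 9.65 to 9.79 in controls. Their differences were 0.04 ± 0.07 and -0.03 ± 0.08 (SE), and both intervals stayed between -0.20 and 0.19. The groups overlapped in both.

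The probe sets of Gclm had differences of opposite sign. Probe set 1439050_at gave 8.83, 8.81 and 8.78 in deficient animals against 8.66, 8.60 and 8.68 in controls, so all deficient arrays lay above all controls. The difference was 0.16 ± 0.07 (SE), or 1.12-fold, with an interval of 0.01 to 0.31, an unadjusted p of 0.0418 from limma and an adjusted p of 0.9999. Probe set 1418627_at gave 9.59, 9.46 and 9.60 in deficient animals against 9.71, 9.37 and 9.73 in controls. Here the groups overlapped, control array 2 stood low, and the difference was -0.05 ± 0.11 (SE). It was -0.17 with the choroid plexus covariate, and -0.17 also without control array 2. Which of these probe sets reads the transcript better is not known from the sources used here.

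Gclm 1439050_at was the only member with an unadjusted p under 0.05, 1 of 20, where 3.34% of all probe sets had this, 2.15% on the higher side and 1.19% on the lower. The groups were apart in 3 of the 20, 2 with the deficient arrays above and 1 below. Over all probe sets the groups were apart in 8.45%, with the deficient arrays above in 4.76% and below in 3.68%. Counts of 1 and 3 among 20 are, beside such shares, no result about these genes.

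Matches to a short sequence pattern tied to the pathway lie close to the start of some of these genes. The core of the antioxidant response element was searched as TGACNNNGC on both strands of RefSeq promoter windows (GRCm38.p6), from 250 bases before to 50 bases after each gene start. Of the 10 genes 8 had a window, and Hmox1 and Gclc had none and were not searched. The core was held by 3 of the 8, Gclm, Txnrd1 and Srxn1, the last of them after the gene start. Sequence outside the windows was not searched, so a window without the core does not show that a gene lacks the element. The core was present in 12.4% of the 32851 windows and in 14.0% of the 27025 genes. The matches upstream of Gclm and Txnrd1 are shown because they put the letters Nrf2 is known to bind beside 2 of the genes described, Gclm with groups apart in 1 probe set and Txnrd1 with a difference near 0. Capitals mark the core, each sequence reads 5′ to 3′ on the minus strand, and both genes lie on the plus strand. The Gclm stretch is at chr3:122245398-122245456 and the Txnrd1 stretch at chr10:82859089-82859147.
Gclm: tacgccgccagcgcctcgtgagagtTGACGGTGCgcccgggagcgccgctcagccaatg
Txnrd1: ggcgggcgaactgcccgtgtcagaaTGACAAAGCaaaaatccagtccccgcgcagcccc
The Gclm core lies 126 to 134 bases before the gene start. The Txnrd1 core lies 84 to 92 bases before the gene start used for 1 of its 3 windows. A match is a description of the letters and does not show that Nrf2 binds there.

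Txnrd1, the cytosolic selenoprotein that keeps thioredoxin reduced, had differences near 0. Its brightest probe set 1421529_a_at gave 9.86, 10.03 and 9.90 in deficient animals against 9.90, 9.85 and 9.89 in controls. Deficient array 2, the array with the wide 3′ to 5′ gap, was the highest, and the other deficient arrays lay within the control range. The difference was 0.05 ± 0.07 (SE), and it was -0.004 without that array. The other Txnrd1 probe sets, 1424486_a_at at no more than 5.36 in deficient animals and 5.39 in controls and 1424487_x_at at 3.66 to 3.72 in deficient animals and 3.63 to 3.94 in controls, were below the array medians on every array. Their differences were -0.06 ± 0.11 and -0.09 ± 0.09 (SE).

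Srxn1 encodes sulfiredoxin, which repairs overoxidised peroxiredoxins, and its 4 probe sets gave opposite readings. Probe set 1451680_at gave 7.93, 7.64 and 7.87 in deficient animals against 8.15, 7.94 and 7.95 in controls, with all deficient arrays below all controls. Probe set 1419942_at gave 6.55, 6.64 and 6.55 in deficient animals against 6.49, 6.53 and 6.38 in controls, with all deficient arrays above all controls. The differences were -0.20 ± 0.10 and 0.11 ± 0.07 (SE). Deficient array 2 was the lowest of the 6 arrays for 1451680_at and the highest for 1419942_at. The brightest, 1426875_s_at, differed by -0.075 ± 0.067, and 1425351_at by -0.0005 ± 0.12. The difference of 1451680_at was -0.11 without IκBα-deficient array 2, -0.13 without control array 1 and -0.37 with the choroid plexus covariate. No direction for Srxn1 can be given from these values.

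Gpx1 and Gpx4 are selenium-dependent glutathione peroxidases, the first acting on hydrogen peroxide and the other on lipid peroxides in membranes. Gpx1 probe set 1460671_at gave 11.24, 11.19 and 11.37 in deficient animals against 11.24, 11.18 and 11.25 in controls. Only deficient array 3 lay above the control range, and the difference was 0.045 ± 0.076 (SE). Gpx4 probe set 1456193_x_at had the narrowest spread of all 20, at 12.44 to 12.50 in deficient animals and 12.40 to 12.45 in controls. For Gpx4 probe set 1451695_a_at, deficient arrays 1, 2 and 3 gave 12.73, 12.44 and 12.73 against 12.72, 12.66 and 12.68 in controls. Deficient array 2 alone set the sign here, as the difference was -0.06 ± 0.10 (SE) with it and 0.04 without it. With the choroid plexus covariate it was -0.11.

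Cat, the catalase of peroxisomes, had positive differences in both probe sets. Probe set 1416429_a_at gave 9.94, 10.13 and 9.79 in deficient animals against 9.76, 9.95 and 9.60 in controls. Probe set 1416430_at gave 10.08, 10.25 and 9.98 in deficient animals against 9.97, 10.04 and 9.99 in controls. The groups overlapped in both, with deficient array 2 the highest and deficient array 3 inside the control range. The differences were 0.19 ± 0.12 and 0.10 ± 0.09 (SE), and 0.10 and 0.03 without IκBα-deficient array 2. Without control array 3 the difference of 1416429_a_at was 0.10. Catalase is abundant in red blood cells. Of 10 red cell markers 4 had no probe set of their own, and the 6 measured were below the array medians, 4 higher and 2 lower, with a summed level of 7.25 to 7.35 in deficient animals against 7.18 to 7.26 in controls. The part of red cell RNA in the Cat values was not tested.

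**Figure D3:**
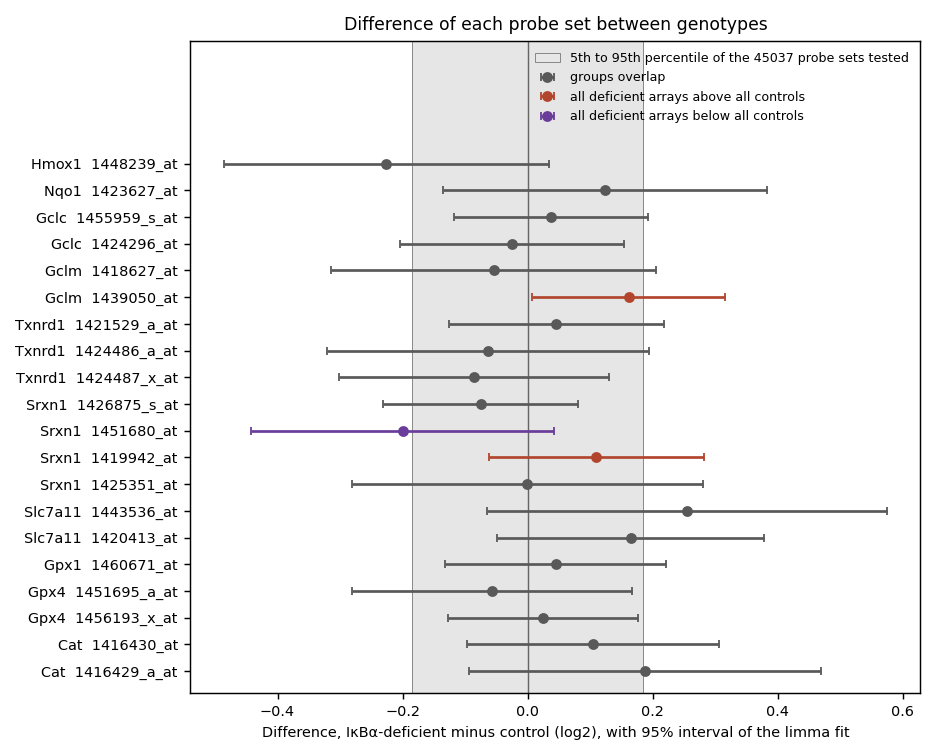
Difference of each probe set, as log2 of deficient over control signal, with its 95% interval from limma (n = 3 arrays per group); the shaded band holds the 5th to 95th percentile of all 45037 probe sets, -0.19 to 0.18. The interval of Gclm 1439050_at alone leaves out 0, and the probe sets of Srxn1 fall on both sides.

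Of the 7 genes with more than 1 probe set, 5 had probe sets of both signs, namely Gclc, Gclm, Txnrd1, Srxn1 and Gpx4, and 2, Slc7a11 and Cat, had a single sign. Probe sets coded a, s or x, which can read more than 1 transcript, made up 8 of the 20, and their median difference was -0.02, against 0.07 for the 12 others. The SD within groups, pooled over genotypes, was between 0.03 and 0.21 among the 20, with a median of 0.11, and the median over all probe sets was 0.12.

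The wider pathway was read from 5 lists holding 72 measured genes, each by its brightest probe set. None passed over the 18193 genes, in which 0% were called at an adjusted p under 0.05 (limma). At an unadjusted p under 0.05, 5 of the 72 were higher and 0 lower, where 3.33% of all genes were higher and 1.39% lower, 4.71% in all. List medians lay between -0.01 and 0.05, beside 0.01 for all genes. All genes named from these lists missed the threshold, and their adjusted p was 0.963 or above. Keap1, Gsr, Gss, Slc3a2 and Hmox2 are named for their roles and were picked after their values were seen.

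Of 12 genes for Nrf2 and its regulators, 9 were higher and 3 lower, with 1 at an unadjusted p under 0.05. That was Nfe2l2 itself, whose probe set 1416543_at gave 8.68, 8.72 and 8.77 in deficient animals against 8.52, 8.52 and 8.61 in controls. The deficient arrays all lay above the controls, and the difference was 0.17 ± 0.06 (SE). The other Nfe2l2 probe set, 1457117_at, was dim, at 4.12 to 4.23 in deficient animals and 4.02 to 4.46 in controls, and differed by -0.05. Keap1 differed by 0.01 ± 0.07 by its brighter probe set and by -0.27 by 1450747_at, which gave 6.88, 5.86 and 6.61 in deficient animals against 6.75, 6.36 and 7.07 in controls. The autophagy receptor Sqstm1, which binds Keap1, differed by -0.25 ± 0.20, with deficient array 2 at 11.12 and array 1 at 11.79, against 11.87 to 11.93 in controls. Deficient array 3 was above all controls.

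Of 19 other Nrf2 targets, 10 were higher and 9 lower, with 1 at an unadjusted p under 0.05. Mgst1, a membrane-bound glutathione transferase, gave 9.81, 9.60 and 9.66 in deficient animals against 9.49, 9.40 and 9.47 in controls, a difference of 0.24 ± 0.07 (SE) with the groups apart. Its dim probe set 1415898_at differed by 0.18. The epoxide hydrolase Ephx1 differed by 0.17 ± 0.08 and was also apart. At the other end stood Gstm1, a cytosolic glutathione transferase with near-identical family members, at -0.38 ± 0.20. Its probe set 1416416_x_at read 11.60, 10.88 and 11.73 in deficient animals against 11.77, 11.76 and 11.81 in controls, and deficient array 2 stood far below the rest. All deficient arrays lay below all controls for it and for 1448330_at, which differed by -0.39 ± 0.22 and was also lowest on deficient array 2. Of the other Gstm1 probe sets, 1425627_x_at differed by -0.06 with groups that overlapped, and 1425626_at by 0.13 with the deficient arrays above all controls.

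Among 23 genes of glutathione metabolism, 11 were higher and 12 lower, and 0 had an unadjusted p under 0.05. Glutathione reductase, Gsr, differed by 0.03 ± 0.06 (SE) and glutathione synthetase, Gss, by -0.09 ± 0.08. The widest difference was that of Gpx8, a peroxidase of the endoplasmic reticulum, at 0.40 ± 0.18, with 7.75, 7.10 and 7.55 in deficient animals against 7.31, 6.84 and 7.04 in controls. Its groups overlapped.

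Of 10 thioredoxin and selenoprotein genes 6 were higher and 4 lower, with 1 at an unadjusted p under 0.05. This was Txnip, an inhibitor of thioredoxin, whose probe set 1415996_at gave 9.44, 9.56 and 9.23 in deficient animals against 9.16, 8.86 and 9.15 in controls. The groups were apart and the difference was 0.35 ± 0.11 (SE), but the dimmer Txnip probe set 1415997_at differed by -0.11. Txn2, the mitochondrial thioredoxin, differed by -0.13 ± 0.07, with the deficient arrays below all controls. Its other probe sets, 1421557_x_at and 1452782_a_at, differed by -0.15 and -0.27 with groups that overlapped. Deficient array 2 was the lowest of the 6 arrays in each Txn2 probe set. For 1452782_a_at the values were 9.96, 9.13 and 10.02 in deficient animals against 9.99, 9.96 and 9.96 in controls.

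Of 8 heme and iron genes 4 were higher and 4 lower, with 2 at an unadjusted p under 0.05. Slc40a1, the iron exporter ferroportin, gave 8.21, 8.39 and 8.05 in deficient animals against 7.93, 7.89 and 7.94 in controls by probe set 1417061_at, a difference of 0.30 ± 0.09 (SE) with the groups apart. Its dimmer probe set 1448566_at differed by -0.13. Aco1, an aconitase that also acts as an iron sensor, differed by 0.19 ± 0.08 by its brightest probe set and by -0.10 and -0.09 by its other 2 probe sets. Hmox2, the constitutive partner of Hmox1, differed by -0.03 ± 0.06.

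**Figure D4:**
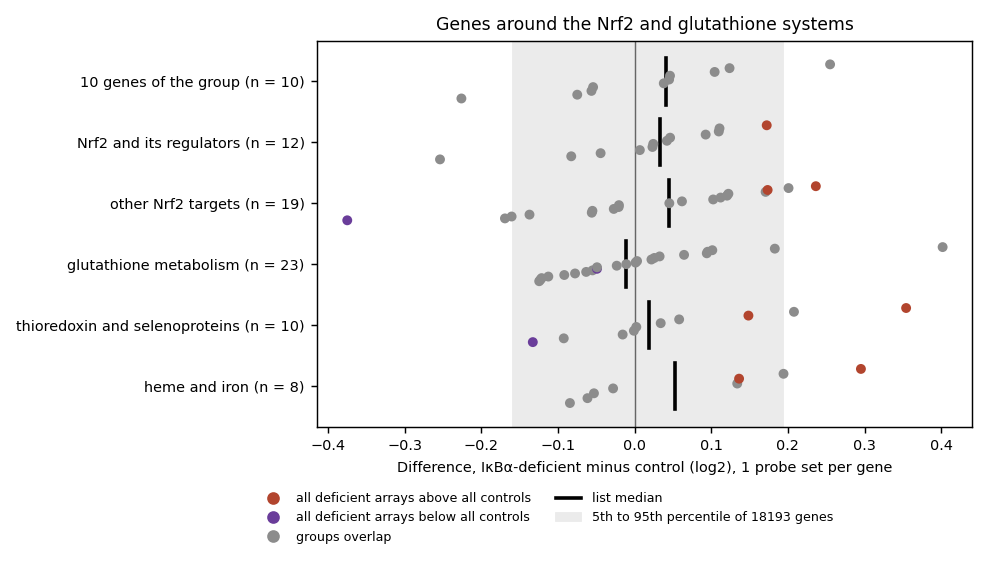
Log2 difference of each gene, deficient minus control, by its brightest probe set (n = 3 arrays per group), in the 10 genes and in the 5 surrounding lists; bars mark list medians and the shaded band holds the 5th to 95th percentile of 18193 genes, -0.16 to 0.19. All list medians lie between -0.01 and 0.05, and the points outside the band are Gpx8, Txnip, Slc40a1, Slc7a11, Mgst1, Txnrd3, Abcc4 and Aco1 on the right and Gstm1, Sqstm1, Hmox1, Me1 and Gsta3 on the left.

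The 10 genes were also set against every other gene by Pearson's r over the 6 arrays, with the brightest probe set of each. The closest pair of genes for Hmox1 was Avp and Saa2, for Nqo1 Spag16 and Ptafr, and for Gclc Acsl5 and Leo1. Gclm was closest to Art4 and Psat1, Txnrd1 to Ndufb11 and Faxc, and Srxn1 to Ctnnbip1 and 4930500F04Rik. For Slc7a11 the pair was Tmod2 and Nr1h3, for Gpx1 C1qtnf3 and Bora, for Gpx4 Camk1 and Fkbp2, and for Cat Itm2a and Ndufaf4. These 20 likenesses had r of 0.979 to 0.999 and Spearman's rho of 0.829 to 1.000. They are the highest of 18192 candidates each, so no p is given and they describe only these arrays. None of the 10 genes was among the closest pair of another. Gpx4 had 345 genes with r over 0.95, and its pattern was set by deficient array 2, while Srxn1 had 13.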

How the data were processed

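The authors deposited log2 values; the submitters' processing notes name RMA, a method that corrects background, applies quantile normalization and summarises the probes of each probe set. Quantile normalization would hide a change shared by most genes. For RMA's version, the probe annotation and any build, the sources used here state nothing. Of 45101 probe sets, 64 control probe sets were left out, and GEO's platform annotation gave 1 symbol to 34945 of the rest, several to 932 and none to 9160. All 20 member probe sets matched RefSeq by Entrez identifier. Arrays give no counts of reads, so precision rests on 3 arrays per group.

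Genotypes were compared with limma 3.58.1 in R 4.3.3 (two-sided, genotype as the only term), adjusted by Benjamini-Hochberg over all 45037 probe sets with a threshold of 0.05. Lists were fitted over 18193 genes, each by its probe set with the highest mean. The members and lists were chosen with earlier results of these data known. The rule for names took all members, the targeted gene, at most 3 genes per list and direction with the smallest p, and the 2 genes most like each member. The script was tested on simulated data. Arrays correlated at 0.992 to 0.998 and no pair was identical. Of 78 genes in the pathway lists, 6 had no probe set of their own symbol. The alternatives tried were the repeat number as a block, leaving out single arrays, repeated quantile normalization, median centring, a filter on dim probe sets, a variance trend, array weights, no moderation, only probe sets with 1 symbol, a choroid plexus covariate, another threshold, other uses of probe sets. Promoter sequences are from RefSeq. Figures were drawn with matplotlib 3.10.9.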

Additional observations from a re-analysis of the deposited data

How the results depend on the processing

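No member probe set was called under any alternative. This held with each of the 6 arrays left out, under the 9 other fits and at an adjusted p under 0.10. The lowest adjusted p of any member was 0.837 (limma, without IκBα-deficient array 3). In that fit 3 of the 20 members had an unadjusted p under 0.05. The share over all probe sets is not given for it, so this count is no result about these genes. The number of probe sets called over the whole table was 1 to 8 with an array left out, 0 without moderation and 0 with the choroid plexus covariate, against 3 in the fit reported. The lowest count came without IκBα-deficient array 2 or control array 3, and the highest without control array 1. The median difference of the 20 probe sets was 0.02 to 0.06 with an array left out and 0.0746 with probe sets coded as shared left out, against 0.03. The sign held in 13 of 20 probe sets throughout. It turned, only with an array left out, for Gclc 1424296_at (-0.0611 to 0.0196), Gclm 1418627_at (-0.172 to 0.0104), Txnrd1 1421529_a_at (-0.00434 to 0.0812), Txnrd1 1424486_a_at (-0.152 to 0.0307), Srxn1 1425351_at (-0.0997 to 0.0915), Gpx1 1460671_at (-0.00765 to 0.0829) and Gpx4 1451695_a_at (-0.107 to 0.0420); the cause was not tested. With the mean of all probe sets of a gene, the median was 0.01 for other Nrf2 targets, against 0.05, and -0.01 for heme and iron, against 0.05.

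The design text speaks of 3 pairs but ties no number to a litter, so whether same-numbered arrays form pairs is not known. Deviations of same-numbered arrays from their group means correlated at -0.004, 0.273 and 0.033 across probe sets. Not every array was closest to its own number. With 3 arrays per group, such correlations cannot settle the pairing. With the repeat number as a block, 2 probe sets were called over the whole table, 0 among the members. In that fit 2 of the 20 members had an unadjusted p under 0.05. The share over all probe sets is not given for it either, so this count is no result about these genes. The median difference was unchanged at 0.03 by construction. The filter on dim probe sets left out 2 of the 20, both for Txnrd1.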
